A study of Rattus norvegicus with 18 samples.

Results

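The comparison was between submucosal fibroblasts of tongue squamous cell carcinoma (SCC) and those of tongue dysplasia, the stage before it, in rats given 4-nitroquinoline-1-oxide (4NQO), and it asked what differs in the connective tissue cells once a carcinoma is present. It was made on 6 of the 18 samples of the series, chosen by their labels alone as the 3 carcinoma and the 3 dysplasia fibroblast samples. Both groups came from male Sprague Dawley rats that drank water with 0.002% 4NQO, a carcinogen that forms DNA adducts. Their lesions were taken between week 14 and week 22. The methods name dysplasia and SCC in that order for these weeks, and the week of each sample is not given. Stage, time on 4NQO and age of the rats therefore cannot be told apart. The 3 normal fibroblast samples came from rats given water only, and 9 epithelial samples of the same 3 stages completed the series. The study states that each sample pooled material of 3 rats. The fibroblasts were cells of the collagenase-digested connective tissue that attached to plastic within a short incubation and were then collected without further culture, so no sort or lineage label defines them. The study reports that it checked the purity of the isolated cells, by staining for E-cadherin, pan keratin and vimentin. RNA was hybridized to Affymetrix rat expression arrays, 1 array per sample, and each probe set is given as a log2 signal, on which a step of 1 is a doubling. Levels of different genes on such arrays are not comparable, so every comparison is of 1 probe set between samples.

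In the oral mucosa, fibroblasts lie under the epithelium, make collagen and other matrix, and respond to injury and to interleukin-1 with chemokines and growth factors. In carcinomas they are called cancer-associated fibroblasts and are known for matrix remodelling and for the recruitment of neutrophils and macrophages. Cells that attach to plastic quickly include macrophages as well as fibroblasts, and the signal of a whole sample cannot tell more cells of a type from more RNA per cell.

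The fibroblast label was checked against cell type markers. Type I collagen (Col1a1) averaged 12.46 ± 0.20 in SCC and 12.22 ± 0.49 in dysplasia fibroblasts, against 10.60 ± 2.40 in SCC and 7.33 ± 1.05 in dysplasia epithelia (SD, n = 3 each), so fibroblast genes were present as labelled. The keratins of basal squamous epithelium were present as well. Krt5 averaged 13.62 ± 0.06 in SCC and 13.58 ± 0.18 in dysplasia fibroblasts, beside 13.44 ± 0.13 in SCC and 13.48 ± 0.09 in dysplasia epithelia (SD, n = 3 each). Krt14 averaged 14.07 and 13.98 in SCC and dysplasia fibroblasts, beside 14.28 and 14.24 in SCC and dysplasia epithelia. These keratins lie near the top of the arrays' range, whose brightest probe sets had linear signals of 18916 to 21626, so their order between the cell types is not read. Cxcl1, Cxcl2, Il1b, Ccl3, Nfkbia, S100a9 and Fos, described below, lay about as near the top in SCC fibroblasts as Krt5. Whether the range limited their changes was not tested. Over 19 epithelial markers the mean log2 signal was 12.26, 12.16 and 11.29 in SCC fibroblast samples 1 to 3 and 12.11, 12.12 and 11.52 in dysplasia fibroblast samples 1 to 3. All 6 values lay below those of the epithelial samples, at 12.80, 12.76 and 12.91 in SCC and 12.95, 12.94 and 12.87 in dysplasia. Of these 19 markers 0 were called different between SCC and dysplasia fibroblasts, with a median change of 0.02, and of 20 fibroblast markers 0 were called, with a median of -0.17, beside 1.96% of all genes called, a share under which lists of this size may hold no call.

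**Figure D1:**
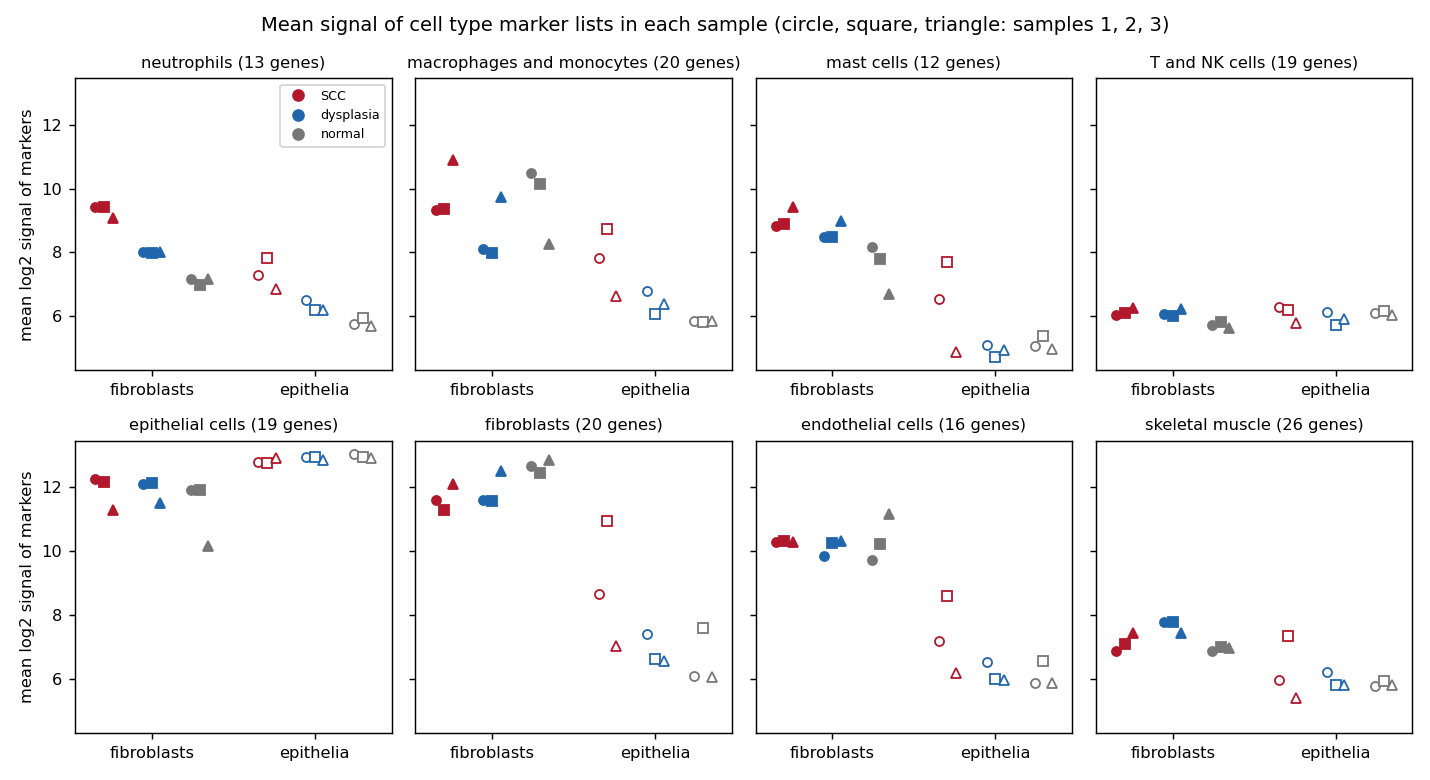
Mean log2 signal of 8 cell type marker lists (vertical axis) in each sample, for fibroblasts (filled) and epithelia (open), with SCC left of dysplasia and normal. The 13 neutrophil markers lie at 9.08 to 9.43 in SCC and 7.98 to 8.03 in dysplasia fibroblasts, while the epithelial and fibroblast markers of these 2 stages overlap.

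Of 13 measured neutrophil markers 4 were called higher in SCC fibroblasts, beside 1.6% of all genes. The 13 measured neutrophil markers had mean signals of 9.41, 9.43 and 9.08 in the SCC samples, against 8.03, 7.98 and 8.03 in the dysplasia samples, so the stages did not overlap. The 20 macrophage and monocyte markers had mean signals of 9.33, 9.36 and 10.90 in SCC, against 8.12, 7.99 and 9.75 in dysplasia, so the stages overlapped, and sample 3 was the highest of each. All 20 had a positive change, as had 50.9% of all genes, with a median of 1.26, and 0 of them were called. Without sample 3 of each stage, 17 of these 20 and 10 of the 13 neutrophil markers were called higher. In that fit 2734 of all 31042 probe sets were higher. Skeletal muscle markers ran the other way, with means of 6.88, 7.10 and 7.44 in SCC and 7.80, 7.78 and 7.45 in dysplasia over 26 genes. Cd3d and the brightest probe set of Cd3e, which define T cells, lay between 6.43 and 7.20 in all 6 samples, and a dimmer probe set of Cd3e between 5.34 and 6.08. Of 19 T and NK cell markers and of 12 mast cell markers 0 were called, with medians of 0.02 and 0.18. The part that these shifts in marker signal play in the gene results that follow was not tested.

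Sample 3 stood apart in both stages. SCC sample 3 correlated with SCC samples 1 and 2 at 0.976 and 0.971 over all probe sets, while samples 1 and 2 correlated at 0.994 with each other. Dysplasia sample 3 correlated at 0.973 with both other dysplasia samples, which had 0.992 between them. No pair of arrays was identical, with a median absolute difference of 0.14 even in the closest pairs. Hybridization spike-in controls averaged 11.54 ± 0.16 in SCC and 12.25 ± 0.12 in dysplasia fibroblasts (SD, n = 3 each). An alignment of the arrays on them would add 0.72 to every SCC minus dysplasia change in fibroblasts given here. In epithelia these controls averaged 11.225 in SCC and 11.131 in dysplasia, so that shift does not hold for the epithelial changes or for the differences between the cell types. All changes are therefore relative to the deposited scale, on which the median change over 14217 genes was 0.0061. The 3' to 5' difference of the actin control probe sets, a sign of RNA integrity, was 1.20 ± 0.06 in SCC and 1.78 ± 0.21 in dysplasia fibroblasts (SD, n = 3 each), and its part in the results was not tested.

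Of 31042 probe sets, 573 (1.85%) were called different between SCC and dysplasia fibroblasts by limma at a Benjamini-Hochberg adjusted p under 0.05. More were higher in SCC (473, or 1.52%) than lower (100, or 0.322%). The called probe sets had a median log2 change of 1.24 among those higher and of -0.97 among those lower, and 324 of the higher and 41 of the lower ones reached a fold of 2. With 1 probe set per gene, 278 of 14217 genes (1.96%) were called, 228 higher (1.6%) and 50 lower (0.352%), and these shares are the background for the gene groups below. The SCC samples lay wholly above the dysplasia samples in 15.1% of genes and wholly below in 11.2%. At a fold of 2 and an unadjusted p under 0.05, the nearest to the fold rule of the methods, 853 probe sets passed (2.75%), 640 of them higher. Calls depended on single arrays, as 107 of the higher and 4 of the lower probe sets kept their call with each of the 9 fibroblast arrays left out in turn. The numbers of calls ranged from 126 without SCC sample 1 to 1276 without normal sample 3, whose stage shares the estimate of the spread. Where calls or p-values are given, they measure only the spread between these pooled samples. The excess of higher over lower calls depended on the setting. Without sample 3 of each stage, 5019 probe sets were called, among them all 573, and the split was 2734 higher and 2285 lower. With arrays weighted by their fit it was 4822 higher and 4603 lower, and with arrays aligned on the spike-in controls 9149 of 9161 calls were higher.

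**Figure D2:**
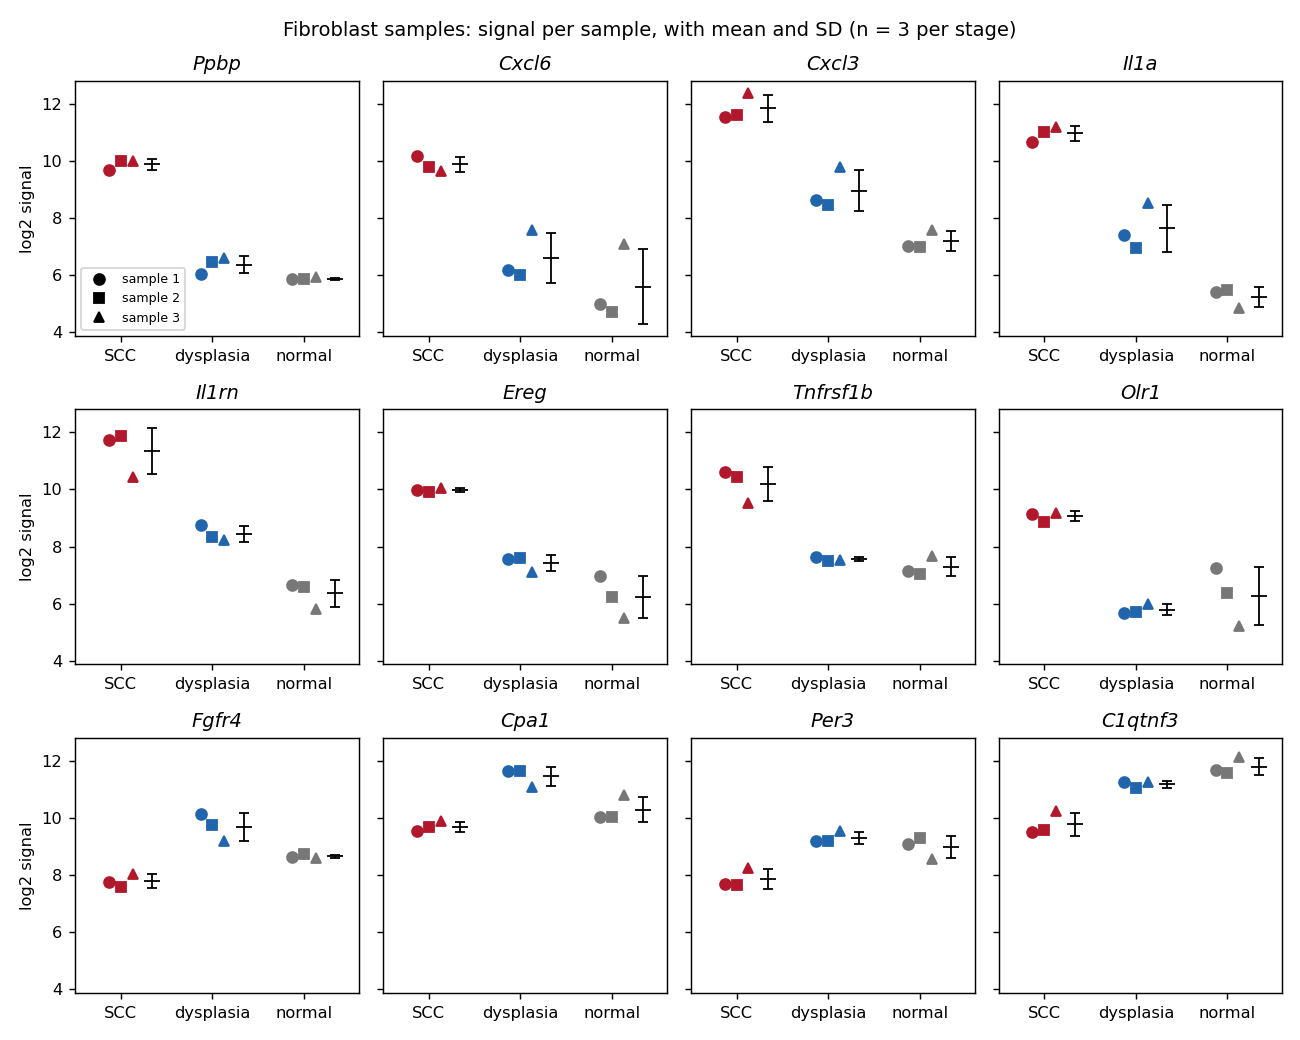
Log2 signal (vertical axis) of 12 genes in each fibroblast sample of SCC, dysplasia and normal tongue, with symbols for samples 1 to 3 and the mean ± SD beside them. In each of the 8 genes of the top rows every SCC sample lies above every dysplasia sample, and in the 4 genes of the bottom row every SCC sample lies below.

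The largest rise was in Ppbp, the gene of platelet basic protein, which is processed to the neutrophil attractant CXCL7. It had log2 signals of 9.67, 9.98 and 9.99 in SCC fibroblasts, against 6.05, 6.47 and 6.61 in dysplasia and 5.86, 5.87 and 5.92 in normal fibroblasts. Its change of 3.51 (95% confidence interval 3.12 to 3.89, adjusted p = 0.000195 from limma), a fold of 11.4, was called with any array left out. Ppbp belongs to the ELR CXC chemokines, which carry a glutamate, leucine and arginine motif and attract neutrophils through CXCR2 and CXCR1. Granulocyte colony-stimulating factor (G-CSF, Csf3) and its receptor act beside them, on the production and survival of neutrophils. Of 10 measured genes of this group, 6 were higher and 0 lower, beside 1.6% and 0.352% of all genes, and the group median was 1.92.

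Among the other ligands, Cxcl3 had signals of 11.52, 11.62 and 12.39 in SCC fibroblasts and 8.63, 8.45 and 9.80 in dysplasia fibroblasts, with no overlap. The change was 2.88 in this probe set, and 2.80 and 2.27 in the other 2 called ones (adjusted p = 0.00796, 0.00796 and 0.00662 from limma). Cxcl3 has 2 further dim probe sets that did not pass. Cxcl6, another ligand of CXCR2 and CXCR1 in human, had 10.18, 9.79 and 9.65 in SCC and 6.17, 6.02 and 7.59 in dysplasia fibroblasts, a change of 3.28 (adjusted p = 0.037). The call of Cxcl6 was lost without normal sample 1, dysplasia sample 1 or 2, or any SCC sample (adjusted p up to 0.162). Cxcl1 and Cxcl2 were bright in every sample, in SCC near the top of the arrays' range, and did not pass. Cxcl1 had 13.57, 13.51 and 13.71 in SCC and 13.15, 13.16 and 13.35 in dysplasia fibroblasts, a change of 0.37 (95% confidence interval 0.08 to 0.67, adjusted p = 0.196). Cxcl2 had 13.85, 13.88 and 13.78 in SCC and 13.12, 13.08 and 13.25 in dysplasia fibroblasts, a change of 0.69 (0.09 to 1.29, adjusted p = 0.233). In both genes the SCC samples still lay above the dysplasia samples.

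On the receptor side, Cxcr2 had signals of 8.78, 8.90 and 7.74 in SCC and 6.89, 6.51 and 6.30 in dysplasia fibroblasts, a change of 1.90 (adjusted p = 0.0162). The G-CSF receptor Csf3r had 11.19, 11.13 and 10.57 in SCC and 9.48, 9.28 and 8.30 in dysplasia fibroblasts, a change of 1.94 (adjusted p = 0.0191). Both are receptors of neutrophils, both stand in the neutrophil marker list too, and both calls were lost without dysplasia sample 2 or SCC sample 1 or 2 (adjusted p up to 0.101). The interleukin-17 receptor chain Il17ra changed by 0.84 (adjusted p = 0.0312), a call that was lost in 7 of the 9 fits with an array left out, those without any of the dysplasia samples, normal sample 1 or 2 or SCC sample 1 or 2 (adjusted p up to 0.139). Csf3 itself had 9.39, 9.58 and 10.59 in SCC, 5.88, 5.95 and 7.45 in dysplasia and 4.13, 4.30 and 6.94 in normal fibroblasts. Its change of 3.43 did not pass (95% confidence interval 1.74 to 5.11, adjusted p = 0.0602), but did with the sample number as a block (adjusted p = 0.00732). Sample 3 was the highest in each stage. Cxcr1 was dim, between 4.66 and 5.08 in these samples, with a change of 0.09.

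Several of these genes are neighbours. In the order of the RefSeq annotation, a stretch of 13 protein-coding genes on rat chromosome 14 runs from Btc through Areg, Ereg, Epgn, Mthfd2l, Cxcl2, Cxcl1, a gene without a symbol, Cxcl3, Pf4, Ppbp and Cxcl6 to Rassf6. This stretch was chosen after its values were seen. Of its 11 measured genes 5 were higher in SCC fibroblasts, beside 1.6% of all genes, a count that the choice of the stretch favours. They were the EGF receptor ligands Areg and Ereg near one end and Cxcl3, Ppbp and Cxcl6 near the other. Between and beside them Btc, another EGF receptor ligand, changed by -0.52 (adjusted p = 0.229) and Rassf6 by 0.30 (adjusted p = 0.837), and neither passed. Pf4, platelet factor 4, had 10.96, 11.04 and 12.16 in SCC and 9.07, 9.07 and 11.49 in dysplasia fibroblasts, which overlap, and its change of 1.51 did not pass (adjusted p = 0.359).

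**Figure D3:**
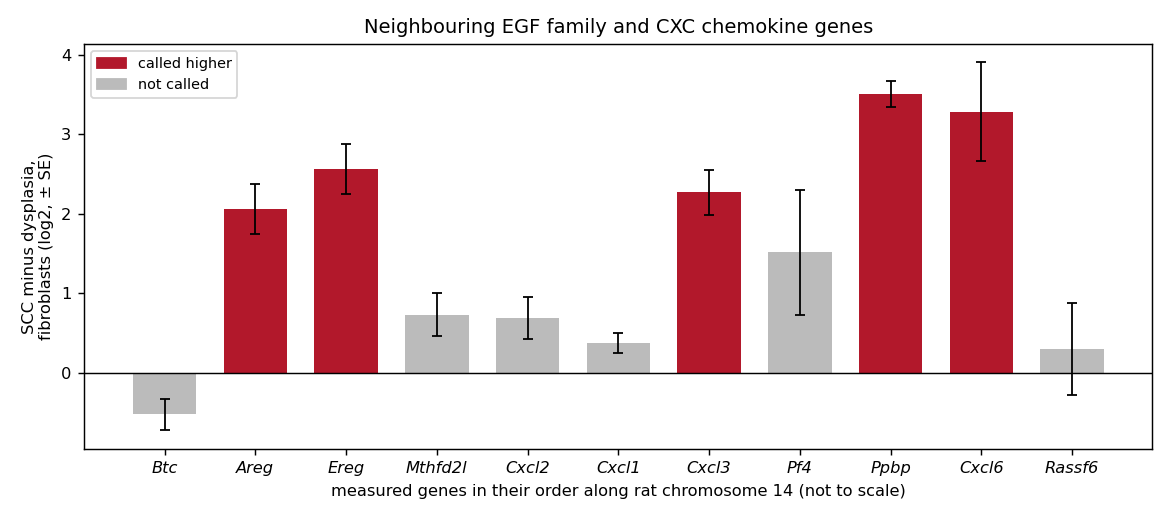
SCC minus dysplasia change in fibroblasts (log2, bars, with the standard error) of the 11 measured genes in their order along rat chromosome 14, with called genes in red. The called genes Areg, Ereg, Cxcl3, Ppbp and Cxcl6 stand among genes such as Cxcl1, at 0.37, that did not pass.

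The promoters of 4 of these neighbours are shown because the genes lie side by side and yet differ in their measured change, and that of Nfkb2 because its product binds the motif searched for. They are the 250 bases before the annotated start in RefSeq (build GRCr8), 5′ to 3′ on the gene's strand. Capitals mark matches to the NF-kB consensus, the motif bound by the NF-kB factors that act downstream of interleukin-1 and TNF, searched on both strands with overlapping matches joined.
Ppbp (chr14:17587300-17587549, minus strand): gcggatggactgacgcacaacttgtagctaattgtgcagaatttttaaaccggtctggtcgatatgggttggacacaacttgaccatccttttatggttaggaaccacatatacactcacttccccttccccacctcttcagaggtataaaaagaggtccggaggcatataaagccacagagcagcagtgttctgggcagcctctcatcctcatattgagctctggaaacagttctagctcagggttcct
Cxcl6 (chr14:17596418-17596667, minus strand): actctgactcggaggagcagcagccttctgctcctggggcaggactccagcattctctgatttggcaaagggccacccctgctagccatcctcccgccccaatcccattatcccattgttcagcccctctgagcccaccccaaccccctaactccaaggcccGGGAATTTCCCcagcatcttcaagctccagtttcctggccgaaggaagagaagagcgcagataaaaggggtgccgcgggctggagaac
Cxcl1 (chr14:17479322-17479571, minus strand): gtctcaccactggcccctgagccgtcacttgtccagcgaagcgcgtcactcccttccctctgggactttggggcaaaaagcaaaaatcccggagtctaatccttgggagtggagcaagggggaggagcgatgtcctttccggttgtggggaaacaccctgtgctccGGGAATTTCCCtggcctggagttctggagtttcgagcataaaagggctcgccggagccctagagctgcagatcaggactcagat
Cxcl2 (chr14:17467256-17467505, minus strand): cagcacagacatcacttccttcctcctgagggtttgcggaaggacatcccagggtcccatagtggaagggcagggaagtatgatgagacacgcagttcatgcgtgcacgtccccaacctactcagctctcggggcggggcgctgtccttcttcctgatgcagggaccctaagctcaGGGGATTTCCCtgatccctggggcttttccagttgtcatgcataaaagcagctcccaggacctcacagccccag
Nfkb2 (chr1:255108124-255108373, plus strand): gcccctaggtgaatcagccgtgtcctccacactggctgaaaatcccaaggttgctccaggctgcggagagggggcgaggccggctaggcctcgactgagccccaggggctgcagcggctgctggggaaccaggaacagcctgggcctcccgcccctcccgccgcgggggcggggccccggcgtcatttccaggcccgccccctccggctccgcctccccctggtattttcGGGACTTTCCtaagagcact
Cxcl6, which was called, and Cxcl1 and Cxcl2, which were not, each held 1 such stretch, starting 88, 84 and 74 bases before the start. Ppbp, with the largest rise, held none in this window. In Nfkb2 the stretch began 20 bases before the start. The consensus was present in 6.33% of the 33469 promoters in the table, in 13.1% of the 252 that belong to genes called higher in SCC fibroblasts, and in 13.5% of the 52 that belong to genes called lower. A match is a run of letters and not a measured binding site. The AP-1 consensus, TGANTCA on both strands, was found in 6.34% of all promoters, in 9.52% of those of the higher and in 1.92% of those of the lower genes. For the TATA box, TATAAA on the gene's strand, these shares were 8.06%, 3.57% and 13.5%. The shares of all promoters count every entry, whether or not its gene was measured, while the others count 1 promoter per called gene. The sets are therefore not matched, and no enrichment is read from them.

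Genes of the interleukin-1 family came next. Interleukin-1 alpha and beta are the 2 agonists of the IL-1 receptor, Il1rn encodes the antagonist that blocks it, Il1r2 a decoy receptor, Il1rap the accessory chain that the receptor needs to signal, and Irak2 a kinase below it. Of 20 measured genes of the family and its signalling, 5 were higher and 0 lower, beside 1.6% and 0.352% of all genes. The SCC samples lay above the dysplasia samples in 12, beside 15.1% of all genes, and the median was 0.55. Il1rn had signals of 11.74, 11.86 and 10.42 in SCC, 8.75, 8.34 and 8.23 in dysplasia and 6.66, 6.59 and 5.82 in normal fibroblasts. Each stage stood above the one before it without overlap. The SCC change was 2.90 (95% confidence interval 2.03 to 3.77, adjusted p = 0.00844 from limma), with a call lost without dysplasia sample 2 or SCC sample 1 (adjusted p up to 0.055).

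Il1a had 10.66, 11.02 and 11.20 in SCC, against 7.42, 6.96 and 8.53 in dysplasia and 5.41, 5.50 and 4.84 in normal fibroblasts in one probe set, a change of 3.32 (adjusted p = 0.00434) that was called with any array left out. A second and brighter probe set had 11.92, 11.86 and 12.50 in SCC and 9.52, 9.45 and 10.57 in dysplasia fibroblasts, a change of 2.25 (adjusted p = 0.0312, and 0.0546 with the sample number as a block). That second call was also lost without normal sample 2, dysplasia sample 1 or 2, or any SCC sample (adjusted p up to 0.133). The 2 probe sets each place every SCC sample above every dysplasia sample. Il1b, the gene on which the study centred, was bright in both stages and in SCC near the top of the arrays' range. It had 13.59, 13.65 and 13.66 in SCC and 12.69, 12.67 and 12.83 in dysplasia fibroblasts. Its change of 0.91 did not pass (95% confidence interval 0.31 to 1.5, adjusted p = 0.131), although the 2 stages did not overlap. The normal samples, at 12.38, 12.20 and 11.22, carry the widest spread of the 3 stages and enter the error of the fit.

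The receptor side of the family moved as well. Il1rap had 9.54, 9.66 and 9.62 in SCC and 7.94, 7.81 and 8.38 in dysplasia fibroblasts, a change of 1.56 (adjusted p = 0.00409), while a dimmer probe set of the gene changed by 0.47 without a call (adjusted p = 0.255). Irak2 had 11.34, 11.14 and 10.69 in SCC and 9.47, 9.29 and 9.29 in dysplasia fibroblasts, a change of 1.71 (adjusted p = 0.00409). Both calls were kept with any array left out. The decoy Il1r2 had 12.77, 12.79 and 12.18 in SCC and 11.52, 11.45 and 10.42 in dysplasia fibroblasts, a change of 1.44 (adjusted p = 0.0474). Its call was lost without normal sample 1 or 2, dysplasia sample 1 or 2, or SCC sample 1 or 2 (adjusted p up to 0.2). The signalling receptor Il1r1 had 10.57, 10.34 and 11.10 in SCC and 10.10, 10.30 and 10.80 in dysplasia fibroblasts, which overlap, and its change of 0.27 did not pass (adjusted p = 0.699). Il1rl1, the receptor of interleukin-33 and a marker of mast cells among others, had 9.48, 9.06 and 9.75 in SCC and 6.52, 6.12 and 6.80 in dysplasia fibroblasts. Its change of 2.95 did not pass (adjusted p = 0.121), with a normal sample 3 at 10.48 and normal samples 1 and 2 at 6.96 and 6.77. A dimmer probe set of Il1rl1 changed by -0.004 (adjusted p = 0.994). Mefv, which encodes pyrin, a sensor of the inflammasome in myeloid cells, had 10.17, 10.29 and 10.06 in SCC and 8.43, 7.93 and 7.67 in dysplasia fibroblasts. It changed by 2.17 (adjusted p = 0.00434), and it was the 1 called gene of 8 in the inflammasome group, beside 1.96% of all genes.

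NF-kB factors are held in the cytoplasm by inhibitors and, once released, switch on chemokines, survival genes and their own inhibitors. Of 16 measured members and feedback genes, 5 were higher and 0 lower, beside 1.6% and 0.352% of all genes, and the SCC samples lay above the dysplasia samples in 12, beside 15.1% of all genes. Birc3, an inhibitor of apoptosis and of non-canonical NF-kB signalling, had 11.20, 11.21 and 11.09 in SCC and 9.68, 9.60 and 9.70 in dysplasia fibroblasts. Its change of 1.5 had a standard error of 0.12 (adjusted p = 0.00224). The subunit gene Nfkb2 had 10.30, 10.26 and 9.91 in SCC and 8.95, 8.92 and 8.77 in dysplasia fibroblasts, a change of 1.28 (adjusted p = 0.00434). Zc3h12a, whose product regnase-1 degrades cytokine mRNAs, changed by 1.14 (adjusted p = 0.00618). These 3 calls were kept with any array left out.

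The inhibitor genes Nfkbib and Tnip1 were also higher, by 0.82 (adjusted p = 0.00844) and 1.12 (adjusted p = 0.0383). Nfkbib lost its call without dysplasia sample 2 or SCC sample 1 (adjusted p up to 0.065), and Tnip1 in every fit but those without normal sample 3 or SCC sample 3 (adjusted p up to 0.177). Nfkbia, the classical inhibitor, had 13.62, 13.71 and 13.59 in SCC and 13.08, 13.14 and 13.16 in dysplasia fibroblasts and did not pass (change 0.51, adjusted p = 0.0618). Nfkb1 changed by 0.72 (adjusted p = 0.0935, and 0.035 with the sample number as a block).

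In the TNF superfamily 3 of 19 measured genes were higher and 0 lower, beside 1.6% and 0.352% of all genes. Tnfrsf1b, the TNF receptor 2 found mostly on immune and endothelial cells, had 10.60, 10.45 and 9.52 in SCC and 7.64, 7.51 and 7.53 in dysplasia fibroblasts. Its change of 2.63 (adjusted p = 0.00409) was kept with any array left out. The death receptor Fas changed by 1.18 (adjusted p = 0.037, and 0.053 with the block), while its 2 dimmer probe sets stood at 0.09 and 0.03. The co-stimulatory receptor Cd40 had 7.85, 7.94 and 8.14 in SCC, 6.69, 6.55 and 7.25 in dysplasia and 7.75, 7.63 and 8.19 in normal fibroblasts, so SCC exceeded dysplasia but not normal tissue (change 1.14, adjusted p = 0.0375). Both of these calls were lost without normal sample 1 or 2, dysplasia sample 1 or 2, or SCC sample 1 or 2, that of Fas also without dysplasia sample 3 and that of Cd40 also without SCC sample 3 (adjusted p up to 0.171 and 0.149). Tnf had 10.69, 10.74 and 11.72 in SCC and 8.54, 8.44 and 10.17 in dysplasia fibroblasts and did not pass (change 2.0, adjusted p = 0.181). Sample 3 was the highest of both stages, and the normal samples spread between 8.86 and 11.22.

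**Figure D4:**
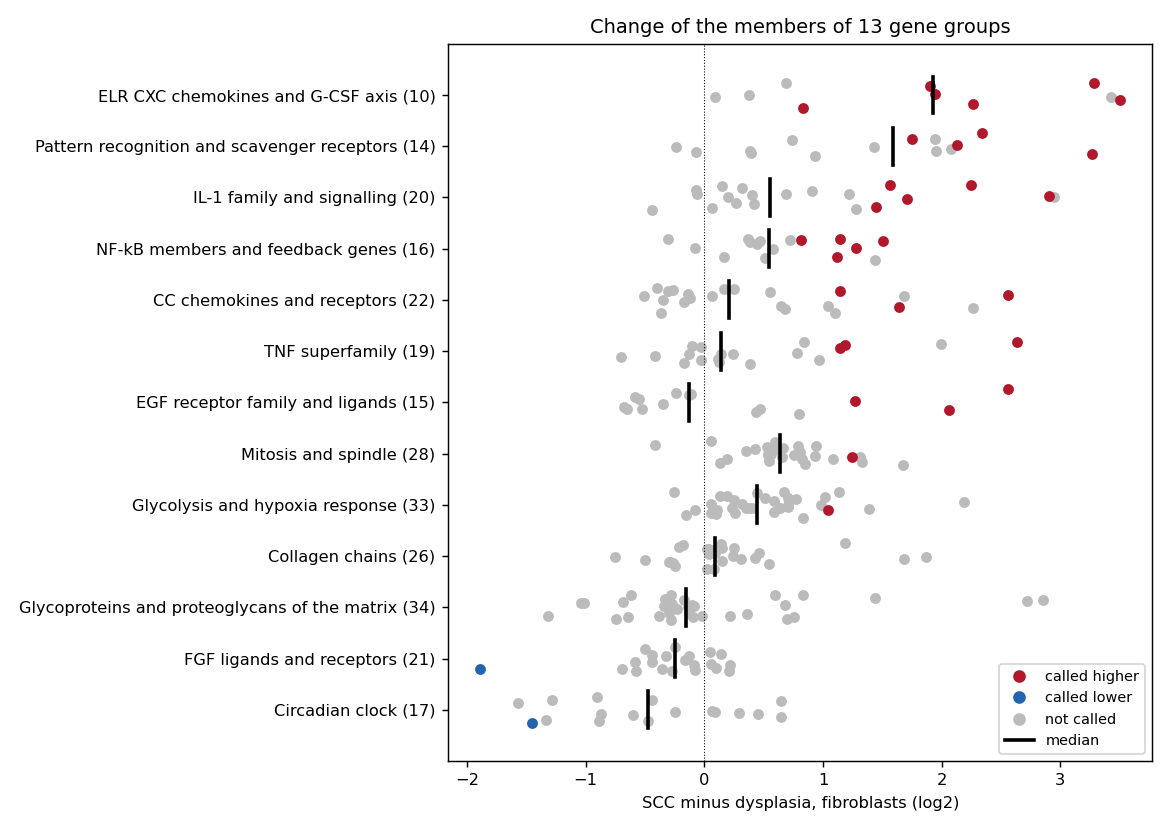
SCC minus dysplasia change in fibroblasts (log2, horizontal axis) of the measured members of 13 gene groups, 1 point per gene and 1 probe set per gene, with the median as a bar and the number of genes in brackets. Called genes gather on the right in the upper groups, where the ELR CXC group has a median of 1.92 and the collagen chains one of 0.09.

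Receptors of innate immune cells were called as well. Of 14 pattern recognition and scavenger receptors 4 were higher and 0 lower, beside 1.6% and 0.352% of all genes, with a median of 1.59. Olr1, a scavenger receptor for oxidized low-density lipoprotein, had 9.14, 8.85 and 9.18 in SCC, 5.66, 5.70 and 6.0 in dysplasia and 7.25, 6.37 and 5.21 in normal fibroblasts. Its change of 3.27 (adjusted p = 0.00762) and those of Pglyrp1, a peptidoglycan-binding protein of neutrophil granules, at 2.34 (adjusted p = 0.00313), and of Tlr1, at 1.75 (adjusted p = 0.00385), were called with any array left out. Pglyrp1 had 9.87, 10.15 and 9.96 in SCC and 7.70, 7.57 and 7.71 in dysplasia fibroblasts. Tlr2, the receptor that pairs with Tlr1 for bacterial lipopeptides, changed by 2.13 (adjusted p = 0.0292, and 0.051 with the block). Tlr2 lost its call without normal sample 2, dysplasia sample 1 or 2, or SCC sample 1 or 2 (adjusted p up to 0.125). Tlr4, the receptor for lipopolysaccharide, was not called (change 0.39, adjusted p = 0.198). The sialic acid receptor Siglec5, named among the largest rises, had 9.54, 9.57 and 8.47 in SCC and 6.29, 6.06 and 5.97 in dysplasia fibroblasts, a change of 3.09 (adjusted p = 0.00405). F2rl2, the thrombin receptor PAR3, had 8.85, 9.08 and 8.03 in SCC and 5.84, 6.04 and 5.95 in dysplasia fibroblasts, a change of 2.71 (adjusted p = 0.00385). Both were called with any array left out.

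Of 22 CC chemokines and receptors, which act mostly on monocytes and lymphocytes, 3 were higher and 0 lower, beside 1.6% and 0.352% of all genes, with a median of 0.21. Ccr1, a receptor on neutrophils and monocytes, had 10.98, 11.02 and 11.09 in SCC and 8.62, 8.41 and 8.40 in dysplasia fibroblasts, a change of 2.56 (adjusted p = 0.0068) kept with any array left out. Ccl6, a chemokine of rodents, and Ccrl2, an atypical receptor that binds chemerin, changed by 1.14 (adjusted p = 0.00919) and 1.64 (adjusted p = 0.0182). Both lost their calls without dysplasia sample 1 or 2 or SCC sample 1 or 2 (adjusted p up to 0.065 and 0.0924). Ccl2, the main monocyte attractant, had 12.86, 12.81 and 13.32 in SCC and 12.09, 12.16 and 12.81 in dysplasia fibroblasts. Its change of 0.64 did not pass (adjusted p = 0.253) but did with the block (adjusted p = 0.0378). Ccl3 had 13.76, 13.79 and 13.54 in SCC and 12.58, 12.57 and 12.62 in dysplasia fibroblasts and did not pass (change 1.10, adjusted p = 0.135), with normal samples from 10.68 to 12.12.

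Of the 13 neutrophil markers, Csf3r, Cxcr2, Hp and Mmp8 were called, and all 13 had a positive change with a median of 1.61. Hp, haptoglobin, a hemoglobin-binding acute-phase protein also stored in neutrophils, had 9.10, 9.32 and 9.13 in SCC and 7.39, 7.25 and 7.31 in dysplasia fibroblasts, a change of 1.87 (adjusted p = 0.00228) kept with any array left out. Mmp8, the neutrophil collagenase, had 6.67, 6.90 and 7.45 in SCC and 5.62, 5.57 and 5.77 in dysplasia fibroblasts, a change of 1.36 (adjusted p = 0.0114). The call of Mmp8 was lost without dysplasia sample 1 or 2 or SCC sample 2 (adjusted p up to 0.0692). The calprotectin gene S100a9 had 13.76, 13.84 and 13.79 in SCC and 12.92, 12.96 and 13.23 in dysplasia fibroblasts and did not pass (change 0.76, adjusted p = 0.0813). Among macrophage genes, Cd68 overlapped between the stages, with 9.52, 9.58 and 11.30 in SCC and 7.32, 7.28 and 9.95 in dysplasia fibroblasts. Itgam, which neutrophils and macrophages share, had 8.44, 8.34 and 7.86 in SCC and 5.83, 5.63 and 6.21 in dysplasia fibroblasts, without overlap and without a call (change 2.32, adjusted p = 0.136). Of 27 interferon-induced genes 1 was higher, beside 1.6% of all genes. It was Ifit3, with a change of 2.40 (adjusted p = 0.0153, and up to 0.0821 without dysplasia sample 2 or SCC sample 1 or 2).

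Ligands of the EGF receptor drive the growth of keratinocytes, and 3 of them rose. Of 15 measured genes of this family 3 were higher and 0 lower, beside 1.6% and 0.352% of all genes, with a median of -0.13. Ereg, epiregulin, had 9.98, 9.92 and 10.05 in SCC, 7.56, 7.59 and 7.10 in dysplasia and 6.96, 6.22 and 5.48 in normal fibroblasts, a change of 2.56 (95% confidence interval 1.84 to 3.29, adjusted p = 0.0068). Areg, amphiregulin, had 10.69, 10.68 and 11.36 in SCC and 8.57, 8.82 and 9.15 in dysplasia fibroblasts, a change of 2.06 (adjusted p = 0.0153). Tgfa had 8.88, 8.69 and 8.91 in SCC and 7.62, 7.59 and 7.47 in dysplasia fibroblasts, a change of 1.27 (adjusted p = 0.00715), and its second probe set was called at 1.01, a call lost without dysplasia sample 2 or SCC sample 1 (adjusted p up to 0.0622). Ereg and this brighter probe set of Tgfa kept their calls with any array left out, and Areg lost its call without dysplasia sample 1 or 2 or SCC sample 1 or 2 (adjusted p up to 0.0773). Of the probe sets of neuregulin 1 (Nrg1), which acts through ERBB3 and ERBB4, 2 of 8 were called, at 1.41 and 1.88 (adjusted p = 0.0315 and 0.0452). Both calls were lost in every fit with an array left out but those without normal sample 3 or SCC sample 3 (adjusted p up to 0.125 and 0.168). The brightest one had a change of 0.80 and no call (adjusted p = 0.174). The brightest probe set of Egfr had 10.06, 9.82 and 10.04 in SCC and 10.36, 10.28 and 10.32 in dysplasia fibroblasts, below them without overlap. It did not pass (change -0.34, adjusted p = 0.215), and its sign turned with the spike-in alignment (0.37). Dimmer probe sets of Egfr changed by 0.11 and 0.10, overlapped between the stages and did not pass (adjusted p = 0.845 and 0.82).

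In the TGF-beta, activin and BMP group 3 of 34 genes were higher and 1 lower, beside 1.6% and 0.352% of all genes, with a median of -0.18. Inhbb, a subunit of activin B, had 9.46, 9.19 and 9.44 in SCC and 7.52, 7.76 and 7.19 in dysplasia fibroblasts, a change of 1.88 (adjusted p = 0.0474, and 0.0574 with the block). Follistatin (Fst), which binds and blocks activins, had 10.50, 10.46 and 10.97 in SCC and 8.77, 8.63 and 9.72 in dysplasia fibroblasts, a change of 1.60 (adjusted p = 0.0283), and a second probe set was called at 1.46. The stress cytokine Gdf15 changed by 1.54 (adjusted p = 0.0293) and Bmp6 by -0.75 (adjusted p = 0.0496). Dimmer probe sets of Bmp6 changed by -0.23, -0.33 and -0.34 without a call. Inhbb kept its call only without normal sample 3, Fst and Bmp6 kept theirs in 2 of the 9 fits with an array left out and Gdf15 in 3, and the call of each was lost without dysplasia sample 1 or 2 or SCC sample 1 or 2 (adjusted p up to 0.186, 0.115, 0.217 and 0.127 for Inhbb, Fst, Bmp6 and Gdf15). Tgfb1 had 7.21, 6.95 and 7.23 in SCC and 5.86, 6.2 and 6.69 in dysplasia fibroblasts and did not pass (change 0.88, adjusted p = 0.086).

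Genes of inducible prostaglandin synthesis and of immediate signalling were also among those called. Of 25 prostanoid and leukotriene genes 2 were higher and 0 lower, beside 1.6% and 0.352% of all genes. Ptgs2, cyclooxygenase 2, had 12.60, 12.41 and 12.71 in SCC, 10.56, 10.29 and 11.59 in dysplasia and 11.03, 10.91 and 11.52 in normal fibroblasts, a change of 1.76 (adjusted p = 0.0299). It lost its call in every fit but those without normal sample 3 or dysplasia sample 3 (adjusted p up to 0.134). Ptger2, the prostaglandin E2 receptor EP2, had 7.66, 7.96 and 7.39 in SCC and 5.55, 5.41 and 5.27 in dysplasia fibroblasts, a change of 2.26 (adjusted p = 0.00348) kept with any array left out. The constitutive enzyme Ptgs1 overlapped between the stages, with a change of 0.35. Of 29 immediate early genes, Dusp2, Dusp5 and Fosl2 were higher and 0 lower, beside the same shares of 1.6% and 0.352%. Dusp5, a phosphatase of ERK, and the AP-1 subunit Fosl2 changed by 1.26 and 1.04 (adjusted p = 0.023 and 0.0274), and both lost their calls without normal sample 2, dysplasia sample 1 or 2 or SCC sample 1 or 2, that of Fosl2 also without normal sample 1 or dysplasia sample 3 (adjusted p up to 0.108 and 0.136). The MAP kinase phosphatase Dusp2 had 12.16, 12.19 and 12.16 in SCC and 10.12, 10.01 and 10.14 in dysplasia fibroblasts, a change of 2.08 (standard error 0.17, adjusted p = 0.00263). Fos had 13.49, 13.46 and 13.65 in SCC and 13.63, 13.63 and 13.81 in dysplasia fibroblasts, and did not pass (change -0.16, adjusted p = 0.566).

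Among 33 genes of the NRF2 and glutathione response 3 were higher and 0 lower, beside 1.6% and 0.352% of all genes, with a median of -0.15. Sod2, the mitochondrial superoxide dismutase, had 12.94, 12.97 and 12.90 in SCC and 12.00, 11.98 and 12.07 in dysplasia fibroblasts, a change of 0.92 (adjusted p = 0.0055). Heme oxygenase 1 (Hmox1) changed by 1.30 (adjusted p = 0.0196) and sulfiredoxin (Srxn1) by 1.49 (adjusted p = 0.0262). Dimmer probe sets of Srxn1 changed by 2.11 and 0.05 without a call (adjusted p = 0.102 and 0.931). Sod2 and Dusp2 kept their calls with any array left out, while Hmox1 and Srxn1 lost theirs without dysplasia sample 1 or 2 or SCC sample 1 or 2, and Srxn1 also without dysplasia sample 3 (adjusted p up to 0.103 and 0.129).

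Matrix genes are those that fibroblasts are best known for. Of 26 collagen chains 0 were called, with a median of 0.09, and of 34 glycoproteins and proteoglycans of the matrix 0 were called, with a median of -0.15. Of 21 fibroblast activation markers 0 were called, with a median of 0.16. With 1.96% of all genes called, lists of this size may hold no call, and nothing is read from these counts. Alpha smooth muscle actin (Acta2) had 8.32, 8.38 and 8.65 in SCC and 7.92, 8.47 and 8.25 in dysplasia fibroblasts. Its change of 0.23 had a 95% confidence interval of -0.24 to 0.70, and that of Col1a1, 0.24, one of -0.38 to 0.86. Some matrix genes had large changes without a call, in both directions. Of the 34 glycoproteins and proteoglycans 10 had a positive change, beside 50.9% of all genes. Osteoglycin (Ogn) had 9.63, 9.13 and 10.64 in SCC and 10.70, 10.70 and 11.94 in dysplasia fibroblasts. Its change was -1.315 (adjusted p = 0.204, and 0.0098 with the block), and its other probe sets changed by -1.035, -1.12 and -0.55 without a call. Tenascin C (Tnc) had 12.76, 12.37 and 13.04 in SCC and 10.83, 10.97 and 12.05 in dysplasia fibroblasts, a change of 1.44 (adjusted p = 0.117, and 0.0176 with the block). Tenascin N (Tnn) had 11.47, 10.87 and 11.89 in SCC and 7.90, 7.84 and 10.32 in dysplasia fibroblasts, a change of 2.72 (adjusted p = 0.0632, and 0.0225 with the block). In both tenascins sample 3 was the highest of each of these stages. Osteopontin (Spp1), made by macrophages as well as stromal cells, had 11.31, 11.41 and 12.21 in SCC and 8.35, 8.37 and 9.66 in dysplasia fibroblasts, while normal samples 1 and 2 stood higher still, at 12.77 and 12.65, and normal sample 3 at 8.78 (change 2.85, adjusted p = 0.176).

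Of 17 matrix metalloproteinases only Mmp8 was called, beside 1.96% of all genes. Stromelysin 2 (Mmp10) had 8.39, 8.35 and 11.37 in SCC and 5.51, 5.23 and 7.98 in dysplasia fibroblasts, a change of 3.13 (adjusted p = 0.124, and 0.0353 with the block). Mmp13 and Mmp9 turned on sample 3. Mmp13 had 10.15, 9.96 and 12.52 in SCC and 7.12, 6.83 and 11.58 in dysplasia fibroblasts, and Mmp9 had 10.69, 10.51 and 10.58 in SCC and 7.55, 7.26 and 10.83 in dysplasia fibroblasts. Their changes of 2.37 (adjusted p = 0.344) and 2.05 (adjusted p = 0.281) did not pass, and without sample 3 of each stage both did (adjusted p = 0.00578 and 0.00064). The urokinase receptor Plaur had 11.25, 11.56 and 11.98 in SCC and 9.01, 8.83 and 10.02 in dysplasia fibroblasts and was called (change 2.31, adjusted p = 0.0309, and 0.0546 with the block). Its call was lost without normal sample 1, dysplasia sample 1 or 2, or any SCC sample (adjusted p up to 0.129), and its dimmer second probe set was called at 1.72.

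Among proliferation and glycolysis genes 2 were called higher, beside 1.6% of all genes. Of 28 genes of mitosis and the spindle 27 had a positive change, beside 50.9% of all genes, with a median of 0.64, and the SCC samples lay above the dysplasia samples in 12, beside 15.1% of all genes. The mitotic kinase gene Aurka was the 1 called, with 8.45, 8.47 and 8.34 in SCC and 7.41, 7.36 and 6.77 in dysplasia fibroblasts (change 1.24, adjusted p = 0.0303), and its call was lost in 6 of the 9 fits with an array left out, those without normal sample 2, any dysplasia sample or SCC sample 1 or 2 (adjusted p up to 0.139). Of 33 genes of glycolysis and the hypoxia response 30 had a positive change, with a median of 0.45, and SCC lay above dysplasia in 19, beside the same 50.9% and 15.1% of all genes. The 1 called was Pfkfb4, a regulator of glycolytic flux, at 1.04 (adjusted p = 0.0197), lost without any dysplasia sample or SCC sample 1 or 2 (adjusted p up to 0.0954), and its other probe set stood at -0.15. The lactate exporter Slc16a3 had 10.57, 10.60 and 10.52 in SCC and 8.41, 8.40 and 8.31 in dysplasia fibroblasts, a change of 2.19 (adjusted p = 0.0516, and 0.0449 with the block).

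Of the 16 named genes called lower, Fgfr4 alone kept its call with any array left out. Fgfr4, a receptor of fibroblast growth factors that is known from muscle progenitors and liver, had 7.77, 7.57 and 8.04 in SCC, 10.13, 9.74 and 9.18 in dysplasia and 8.64, 8.72 and 8.59 in normal fibroblasts. It fell by 1.89 (95% confidence interval -2.41 to -1.36, adjusted p = 0.00662 from limma). It was the 1 called gene of 21 in the FGF group, beside 1.96% of all genes, and the group had a median of -0.24. Dysplasia stood above both other stages for Fgfr4, as for the pancreatic-type protease gene Cpa1, with 9.53, 9.66 and 9.88 in SCC, 11.64, 11.65 and 11.08 in dysplasia and 10.03, 10.03 and 10.80 in normal fibroblasts (change -1.77, adjusted p = 0.0109). Cpa1 lost its call without dysplasia sample 1 or 2 or SCC sample 1 or 2 (adjusted p up to 0.0682).

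Of 26 skeletal muscle markers, 3 were lower and 1 higher, beside 0.352% and 1.6% of all genes, with a median of -0.53. The SCC samples lay below the dysplasia samples in 16, beside 11.2% of all genes. Alpha-actinin 3 (Actn3), of fast fibres, had 6.06, 6.11 and 5.98 in SCC and 7.66, 7.39 and 7.03 in dysplasia fibroblasts, a change of -1.31 (adjusted p = 0.00844). Fast troponin I (Tnni2) changed by -0.98 (adjusted p = 0.0312) and myoglobin (Mb) by -1.09 (adjusted p = 0.0375), while troponin C of slow and cardiac muscle (Tnnc1) changed by 1.28 (adjusted p = 0.0329). Outside the marker list, the muscle genes Mybpc1, Dmpk and Chodl were among the 10 largest falls, at -1.74, -1.34 and -1.50 (adjusted p = 0.0343, 0.00843 and 0.0129), and the oxidative muscle subunit Cox8b changed by -1.30 (adjusted p = 0.0432). Mybpc1 had 7.23, 7.22 and 7.90 in SCC, 9.60, 9.38 and 8.58 in dysplasia and 7.45, 7.64 and 8.29 in normal fibroblasts, so that dysplasia again stood above both other stages. The call of each of these 8 muscle genes was lost without some arrays. For Chodl, Dmpk and Actn3 these were among dysplasia samples 1 and 2 and SCC samples 1 and 2, and for the others they also included normal sample 1 or 2 or dysplasia sample 3 (adjusted p up to 0.163). Mybpc1 also lost its call with the block (adjusted p = 0.0562). Myod1, the master regulator of muscle, had 5.93, 5.78 and 6.73 in SCC and 8.65, 8.02 and 7.42 in dysplasia fibroblasts and did not pass (change -1.88, adjusted p = 0.0704).

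The circadian clock gene Per3 had 7.67, 7.65 and 8.25 in SCC, 9.18, 9.19 and 9.55 in dysplasia and 9.07, 9.29 and 8.56 in normal fibroblasts, a change of -1.45 (adjusted p = 0.0205). It was the 1 called gene of 17 in the clock group, beside 1.96% of all genes, and the group had a median of -0.47. The call of Per3 was lost without any dysplasia sample or SCC sample 1 or 2 (adjusted p up to 0.109). A dim second probe set of Per3 changed by 0.20 (adjusted p = 0.704). The output factor Dbp had 8.38, 8.40 and 9.87 in SCC and 9.98, 9.96 and 11.41 in dysplasia fibroblasts, a change of -1.56 that did not pass (adjusted p = 0.144). With the sample number as a block, 5 clock genes were lower in SCC, namely Per3, Dbp, Hlf, Tef and Per2 (adjusted p = 0.0391, 0.0331, 0.0367, 0.0266 and 0.0415). In that fit 220 of all 31042 probe sets were lower. Dimmer probe sets of Hlf (adjusted p = 0.354, 0.534 and 0.12) and of Per2 (0.543) were not called with the block. The hour at which tissue was taken is not given in the labels. The other 4 of the 10 largest falls were the deubiquitinase Usp13 at -1.91 (adjusted p = 0.04), the transporter Abca8 at -1.44 (adjusted p = 0.0174), C1qtnf3, an adipokine of stromal cells, at -1.41 (adjusted p = 0.0177), and the potassium channel subunit Kcnab1 at -1.33 (adjusted p = 0.0451, and 0.0624 with the block). Their calls were lost without dysplasia sample 1 or SCC sample 1 or 2, those of C1qtnf3, Usp13 and Kcnab1 also without dysplasia sample 2 or 3, and those of Usp13 and Kcnab1 also without normal sample 1 or 2 (adjusted p up to 0.0962, 0.096, 0.178 and 0.197 for Abca8, C1qtnf3, Usp13 and Kcnab1). C1qtnf3 had 9.51, 9.57 and 10.23 in SCC, 11.24, 11.03 and 11.26 in dysplasia and 11.68, 11.58 and 12.12 in normal fibroblasts. Dimmer probe sets of Usp13 changed by -0.62 and 0.007 and were not called (adjusted p = 0.306 and 0.99). Those of Abca8 and Kcnab1 changed by -0.48 and -0.22, also without a call (adjusted p = 0.428 and 0.406). Of the 10 largest falls Fgfr4, Cpa1 and Usp13 remained called with the arrays aligned on the spike-in controls (adjusted p = 0.0176, 0.0417 and 0.0259), and the changes of all 10 stayed negative.

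The study named 25 genes in its RT-PCR and network text, which drew in part on these samples and in part on its other arrays, of a carcinoma cell line with Il1b silenced and of tongue tissue under an interleukin-1 receptor antagonist. Where these samples chose a gene, its direction is not independent evidence. Of these 25, 5 were higher in SCC fibroblasts, namely Ptgs2, Il1rap, Cd40, Hmox1 and Il1r2, and 0 were lower, beside 1.6% and 0.352% of all genes, with a median of 0.68. The SCC samples lay above the dysplasia samples in 12 of the 25, beside 15.1% of all genes. Icam1, an adhesion receptor for leukocytes, had 12.26, 12.04 and 12.54 in SCC and 11.51, 11.59 and 11.93 in dysplasia fibroblasts and did not pass (change 0.60, adjusted p = 0.128). The calprotectin gene S100a8 changed by 0.97 (adjusted p = 0.2), the brightest probe set of Glrx by 0.71 (adjusted p = 0.146) and Ccl20 by 0.68 (adjusted p = 0.496). A dimmer probe set of Glrx was called at 1.14 (adjusted p = 0.042, and 0.0563 with the block), and its call was lost in every fit with an array left out but those without normal sample 1 or 3 (adjusted p up to 0.165). Mmp3 had 11.99, 11.81 and 13.59 in SCC and 11.57, 11.50 and 12.80 in dysplasia fibroblasts, which overlap (change 0.50, adjusted p = 0.719). Vsnl1, Myc, Gsdma, Anxa9, Mmp2, Tgfb2 and Tgfb3 lay between -0.59 and 0.43, overlapped between the stages and did not pass.

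The change was also set against that of the epithelial samples of the same stages, with the difference between the cell types tested in 1 fit of all 18 arrays. This difference was called for 202 of 31042 probe sets (0.651%), of which 190 were higher, meaning a larger rise or a smaller fall in fibroblasts. The split was more even in other settings, with 310 of 559 higher without sample 3 of each stage, 160 of 278 without SCC epithelia 3 and 2230 of 3610 with array weights. Among the 74 called probe sets named by rule, 17 differed in this way, 16 of them with the larger change upward in fibroblasts. These 74 were chosen by their call in the fibroblast change, which is part of the difference tested. That choice favours a difference in the direction of the call, so these counts are not independent evidence. Il1rn changed by 2.90 in fibroblasts and by -0.15 in epithelia, a difference of 3.05 (standard error 0.46, adjusted p = 0.00848). Irak2 changed by 1.71 and 0.01 and Birc3 by 1.5 and 0.03, differences of 1.70 and 1.47 (adjusted p = 0.0055 and 0.00661). Ppbp rose by 3.51 in fibroblasts and changed by 1.04 in epithelia, a difference of 2.47 (adjusted p = 0.0131). For Cxcl6, with 3.28 in fibroblasts and 2.53 in epithelia, and Olr1, with 3.27 and 1.13, the difference was not called (adjusted p = 0.825 and 0.165). The mean signal of the 20 fibroblast markers was 8.67, 10.94 and 7.04 in SCC epithelia 1 to 3, against 7.42, 6.64 and 6.56 in dysplasia epithelia, so that SCC epithelia 1 and 2 stood above every dysplasia sample. Without SCC epithelia 2, the highest of them, 11 of the 17 differences were called, and the part of this signal in them was not tested.

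**Figure D5:**
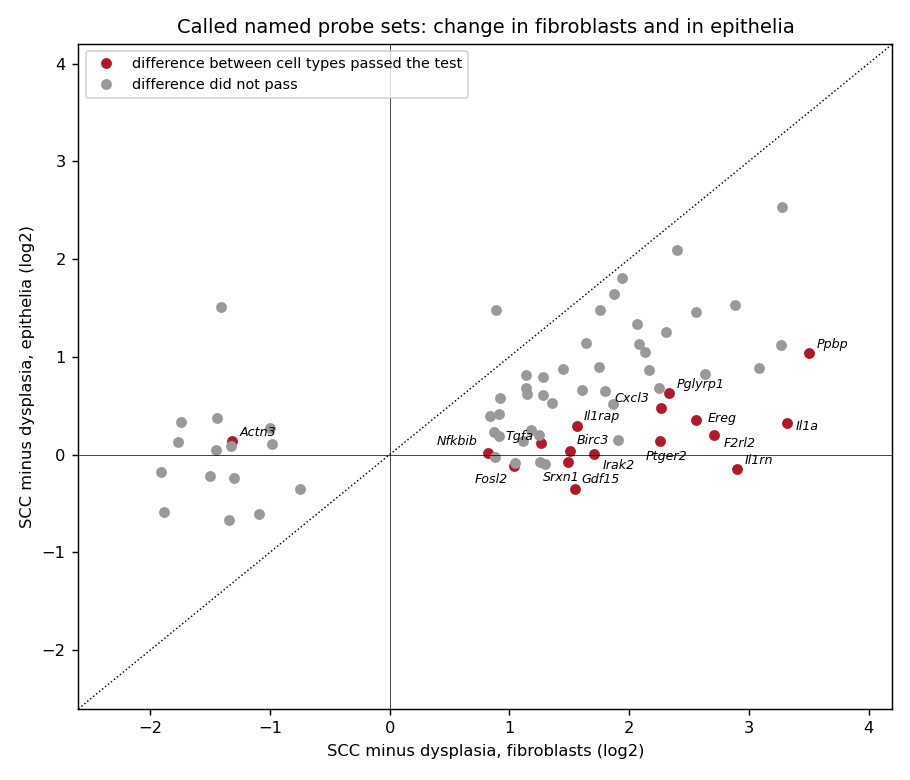
SCC minus dysplasia change (log2) of the 74 called named probe sets in fibroblasts (horizontal axis) and in epithelia (vertical axis), with the dotted line marking equal change. The 17 red points passed the test of the difference, 16 of them below the line, such as Il1rn at 2.90 and -0.15.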

How the data were processed

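RNA of 18 pooled samples was hybridized to 1 Affymetrix rat array each, and the 9 fibroblast arrays carried the main comparison. The deposited values are 1 linear signal intensity per probe set and sample, and the authors' notes on processing list Affymetrix Expression Console with RMA, in versions not given in the sources used here. How linear values were made from RMA is not given either. Signals were taken to log2 as deposited, and no further normalization was applied. The 57 control probe sets were left out, which left 31042, of which 20826 had 1 gene symbol in the platform annotation, 436 several and 9780 none. limma 3.58.1 (R 4.3.3, with Python 3.11.15 for summaries) was fitted with a mean for each of the 3 fibroblast stages, and the difference from epithelia over all 18 arrays. P-values were adjusted over all probe sets by the Benjamini-Hochberg method and called at 0.05. With 3 samples against 3, an exact permutation test of a single gene cannot go below 0.1, so none is given. Gene groups used the probe set with the highest mean log2 signal per gene (14217 genes).

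The genes named were the 10 largest rises and 10 largest falls among called genes without overlap and with a mean of at least 8 in the higher group, up to 6 called members of each list by p, the genes of the study's RT-PCR and network text, the defining cell type markers, and family members of these. The gene members and lists were chosen with earlier results of these data known.

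Sample numbers were shared between stages, and deviations of same-numbered SCC and dysplasia samples correlated at 0.321, 0.452 and 0.592 over all probe sets, so the number was used as a block in an alternative fit. Samples 1 and 2 correlated as well across numbers (SCC 1 with dysplasia 2 at 0.326, SCC 2 with dysplasia 1 at 0.352), whereas sample 3 of either stage and samples 1 and 2 of the other ranged from -0.416 to -0.527, so the check sets number 3 apart and does not tell 1 from 2. The labels do not say what the number marks. Other alternatives were a filter at a mean log2 of 7, an offset of 16 before log2, quantile normalization, alignment on 18 spike-in probe sets, array weights, a trended robust fit, the 6 arrays or all 18 arrays, the methods' t-test, stricter and looser thresholds, and fits that each omitted 1 array. In simulated data for this comparison, on 31042 probe sets, 48 of 100 shifts of 1 and 99 of 100 shifts of 2 were recovered, with 6 false calls. The simulated noise was independent between arrays and probe sets and held no shared deviation of samples 3. These numbers therefore check the fit and do not give the recovery or the false calls in the real arrays. The number of arrays limits the precision.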

Additional observations from a re-analysis of the deposited data

Results flagged for a closer look

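The change between SCC and dysplasia differed between fibroblasts and epithelia for 17 of the 74 called probe sets named, by limma's test of the difference over all 18 arrays. The 74 were chosen by their call in fibroblasts, which is part of this difference and favours such a result. Each value is the log2 change in fibroblasts minus that in epithelia. In the interleukin-1 and NF-kB genes it was 3.05 for Il1rn (adjusted p = 0.00848), 3.0 for 1 probe set of Il1a (0.0211), 1.7 for Irak2 (0.0055), 1.27 for Il1rap (0.0128), 1.47 for Birc3 (0.00661) and 0.8 for Nfkbib (0.00911). The brighter probe set of Il1a had a difference of 1.56, which was not called (0.192). In chemokines, receptors and growth factors it was 2.47 for Ppbp (0.0131), 1.79 for 1 probe set of Cxcl3 (0.0499), 2.51 for F2rl2 (0.0134), 2.12 for Ptger2 (0.00563), 2.21 for Ereg (0.0458), 1.15 for Tgfa (0.017) and 1.89 for Gdf15 (0.029). It was 1.71 for Pglyrp1 (0.0197), 1.56 for Srxn1 (0.0269), 1.16 for Fosl2 (0.0199) and -1.45 for Actn3 (0.0179).

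Without SCC epithelia 2, the epithelial sample with the highest fibroblast marker signal, the difference was no longer called for Il1a (adjusted p = 0.0506), Ereg (0.106), Gdf15 (0.072), Cxcl3 (0.113), Srxn1 (0.0655) and Fosl2 (0.0531). Without sample 3 of each stage it was not called for Ereg (0.111), Cxcl3 (0.0638) and Nfkbib (0.0516). With each of the 18 arrays left out in turn, 8 of the 17 kept their call every time, namely Il1rn, F2rl2, Ppbp, Ptger2, Irak2, Birc3, Il1rap and Nfkbib, and 0 changed sign under any alternative run.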

How the results depend on the processing

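The 573 calls became 9161 with spike-in alignment (9149 higher), 9425 with array weights (4822 higher, in an estimation that stopped before convergence), 5019 without sample 3 of each stage (2734 higher), 1511 with all 18 arrays, 292 when only 14217 probe sets, 1 per gene, were fitted and adjusted for, and 160 by the methods' t-test, and 143 at an adjusted p under 0.01 and 365 with a fold of 2 added. Leaving out 1 array gave 126 to 1276. The 853 at a fold of 2 and unadjusted p under 0.05 became 543 with the low signal filter, 5892 with spike-in alignment, 1287 with array weights, 423 with 1 probe set per gene, 1281 without samples 3 and 2632 at a fold of 1.5, and 753 to 1298 with 1 array left out. The 202 differences from epithelia became 12297, 3610, 62 and 559 with spike-in alignment, array weights, 1 probe set per gene and no samples 3, and 56 to 508 with 1 array left out. With the replicate block there were 846 calls (626 higher, 220 lower), 507 of them among the 573, and 227 differences from epithelia. The cause of these shifts was not tested.

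Of the 58 higher and 16 lower named probe sets called, all 58 and 3 kept their call with spike-in alignment, 50 and 14 with the replicate block, 50 and 16 with quantile normalization and 14 and 0 by the methods' t-test. None of these 74 changed direction in any setting run. Signs turned in named genes without a call, of which those that follow are examples. With spike-in alignment Fos was 0.56, Tgfb2 0.20, Mmp2 0.44, Gsdma 0.63, Anxa9 0.23, Tgfb3 0.13, Myc 0.70, Btc 0.19, Egfr 0.37, Per1 0.28 and Per2 0.115. Medians of whole lists turned with it too, among them the fibroblast markers from -0.17 to 0.55, the skeletal muscle markers from -0.53 to 0.19 and the clock group from -0.47 to 0.24. Gsdma was 0.14 with array weights and 0.0823 without samples 3. With 1 array left out Mmp3 ranged from -0.0605 to 0.93, Vsnl1 from -0.11 to 0.90, Mmp2 from -0.63 to 0.0382, Gsdma from -0.17 to 0.0463 and Myc from -0.18 to 0.12.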
